A study of Rattus norvegicus with 18 samples.

Results

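Untrained rats from the high lines of both selection programmes were compared with untrained rats from the low lines, to find which differences in muscle transcripts the 2 programmes share. Members were chosen by label alone, with earlier results of these data known. They are 12 of the 18 RNA-seq libraries of the series, with 6 libraries from high lines and 6 from low lines. The 6 libraries from trained rats were left out of the fit. In the capacity programme, HCR (high capacity runner) and LCR (low capacity runner) rats of generation 33 had been bred over generations for how far they ran on a treadmill without training. In the response programme, HRT (high response trainer) and LRT (low response trainer) rats of generation 15 had been bred for how much running distance they gained from training. All were males from lines founded on the genetically heterogeneous N:NIH stock, with 3 rats per group, 1 library per rat and no transgene or drug. The HCR and LCR muscles came from a frozen archive and their lines were tested at 11 weeks of age. The HRT and LRT rats were tested at 10 to 12 weeks, were kept untrained over the 8 weeks in which other rats were trained, and were tested again before the muscle was taken. Programme, generation and tissue handling therefore changed together and cannot be told apart. Age at sampling is not given for HCR and LCR, so any difference in it cannot be told apart either. The paper also reports a lower body weight in HCR than in LCR rats. Within a programme the high and low lines are closed breeding lines, so selection and chance drift in a line cannot be told apart here. The column heading of each library's counts also holds a number that is not explained, called the heading number here. It was 2 in all 3 HRT libraries and in no LRT library. The difference between HRT and LRT therefore cannot be told apart from what this number stands for.

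Gastrocnemius is a mixed calf muscle in which slow, oxidative fibres and fast, glycolytic fibres lie side by side with vessels, nerve, fat and connective tissue. Running capacity draws on oxygen delivery, mitochondria and fibre type, and the gain from training adds the capacity of the muscle to remodel. A transcript that differs in the same direction in both programmes is therefore of interest as a candidate shared by the 2 traits.

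Of 13594 tested genes, 1 passed the test of high against low lines over both programmes. It was ENSRNOG00000021555, which was nearly absent from every low-line rat and present in every high-line rat. Lines were compared by edgeR's quasi-likelihood test with a term for programme. Genes were called where the p, adjusted by the Benjamini-Hochberg method, was under 0.05 and the change exceeded 1.5-fold. The called gene was 0.00736% of the genes tested, and 0 genes were called as lower in the high lines. At an adjusted p under 0.10 there were 3 genes. Before adjustment, 1015 genes had a p under 0.05, 7.47% of those tested, with 409 higher and 606 lower in the high lines. Of these, 307 also differed by more than 1.5-fold, 146 upward and 161 downward. The count of called genes depended on the test, since the Wald test of DESeq2 gave 40 genes, of which 11 were higher and 29 lower, with ENSRNOG00000021555 among them.

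The count tables name genes by Ensembl identifier, and neither they nor the reference tables pair these identifiers with symbols. What ENSRNOG00000021555 encodes is therefore not stated, nor whether a near-identical copy shares its reads. HCR replicates 1, 2 and 3 had 77, 56 and 98 counts of it, and LCR replicates 1, 2 and 3 had 2, 1 and 6. HRT replicates 1, 2 and 3 had 131, 128 and 159 counts, and LRT replicates 1, 2 and 3 had 1, 6 and 3. Every high-line rat was far above every low-line rat, and 4 of the 6 low-line libraries were at 3 counts or fewer. Scaled to CPM, which is counts per 1000000 counts of the library, the gene was at 2.09 ± 0.266 (SD, n = 3) in HCR and 0.0800 ± 0.0615 in LCR. It was at 4.13 ± 0.534 in HRT and 0.0833 ± 0.0651 in LRT. The summed counts gave a ratio of HCR to LCR of 24.8, with a 95% exact interval of 12.8 to 54.8 for counting error only. For HRT to LRT the ratio was 49.7, with an interval of 26.8 to 104. The fitted log2 difference between high and low lines was 5.13 (standard error 0.34, adjusted p = 1.21e-05 from edgeR). With the low lines so near to 0 this difference can depend on the prior count, which was not varied. Its size did not pass the test of a difference between programmes (interaction log2 -0.997, adjusted p = 0.733 from edgeR).

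The following 3 genes did not pass. They are the next gene by p among those higher in the high lines and the 2 of smallest p among those lower, with ranks of 2, 3 and 8 by p over all genes. ENSRNOG00000032902 was at 22.2, 25.5 and 24.1 CPM in HCR and at 5.66, 7.39 and 4.77 CPM in LCR. In the response programme it was at 19.9, 17.1 and 14.2 CPM in HRT and at 8.05, 10.8 and 4.07 CPM in LRT. The high-line rats were above the low-line rats in both programmes, with a fitted log2 difference of 1.58 (standard error 0.23, adjusted p = 0.0790 from edgeR). ENSRNOG00000047028 was at 8.07, 10.7 and 7.94 CPM in HCR against 17.5, 16.8 and 21.6 CPM in LCR. It was at 9.92, 7.56 and 12 CPM in HRT against 16.4, 14.4 and 18 CPM in LRT. The groups did not overlap in either programme, and the log2 difference was -0.90 (standard error 0.14, adjusted p = 0.0918 from edgeR). ENSRNOG00000007510 was at 3.31, 3.17 and 3.07 CPM in HCR and at 6.70, 5.37 and 6.84 CPM in LCR. It was at 2.90, 4.62 and 3.92 CPM in HRT and at 5.37, 6.93 and 4.70 CPM in LRT. HRT and LRT came within 0.1 CPM of each other in this gene without overlapping, and the log2 difference was -0.78 (standard error 0.15, adjusted p = 0.277 from edgeR). DESeq2's Wald test called all 3 of these genes, with adjusted p of 1.2e-07, 1.48e-05 and 0.00318 in the order given.

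**Figure D1:**
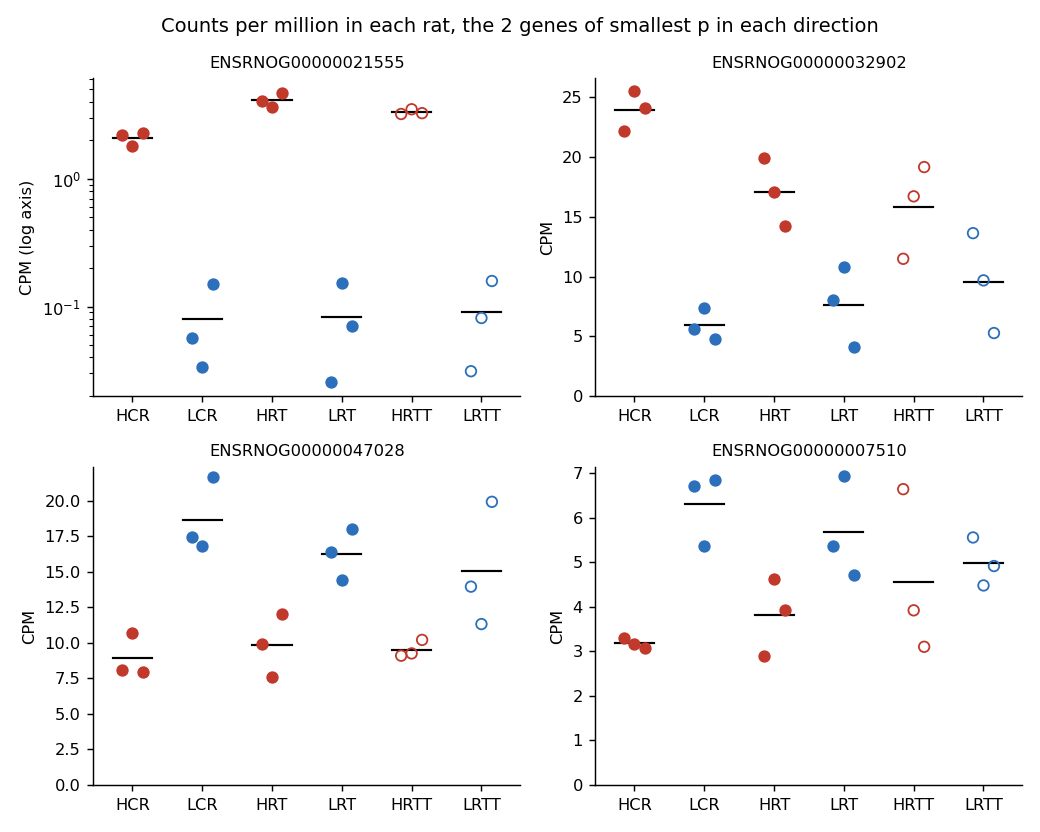
Each point is 1 rat, with CPM on the vertical axis (a log axis for ENSRNOG00000021555, axes from 0 for the others) and the group on the horizontal axis. Red marks high lines, blue low lines, open circles the trained rats that did not enter the fit, and the black line the mean of 3 rats; in all 4 panels the filled red and blue points do not overlap within a programme.

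The trained rats, HRTT and LRTT, come from the lines of HRT and LRT and were not used in choosing these genes. ENSRNOG00000021555 was at 3.21, 3.49 and 3.26 CPM in HRTT replicates 1, 2 and 3 and at 0.0312, 0.0814 and 0.158 CPM in LRTT. The lowest of the 9 high-line rats of the series was at 1.79 CPM and the highest of the 9 low-line rats at 0.158 CPM. ENSRNOG00000047028 was also lower in each HRTT rat, at 9.09 to 10.2 CPM, than in any LRTT rat, at 11.3 to 19.9 CPM. ENSRNOG00000032902 overlapped after training, with 11.5 to 19.2 CPM in HRTT and 5.28 to 13.6 CPM in LRTT, and so did ENSRNOG00000007510, with 3.10 to 6.64 CPM in HRTT and 4.48 to 5.55 CPM in LRTT. Among the 1015 genes at an unadjusted p under 0.05, the sign of the difference was the same in the trained rats for 558, or 55%, beside 52.6% over all tested genes. Among the 100 genes of smallest p it was the same for 64 of the 100.

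Of the variance of log2 CPM in a gene, a median of 5.59% went with the high or low line, 9.32% with the programme, 5.88% with the interaction of both and 65.7% lay between rats of the same group. These shares have 1, 1, 1 and 8 degrees of freedom, which by themselves amount to 9.09% for each single degree and 72.7% for the 8, so they are a description and no test. The median SD between rats of a group was 0.28 on the log2 scale, and the biological coefficient of variation was 25.2%. Total counts ran from 31869042 to 42172690, so the deepest library held 1.32 times the counts of the shallowest. Over the 500 genes of highest variance, a leading principal component carried 52.1% of the total. On it LCR replicate 2, HRT replicates 2 and 3 and LRT replicates 1 and 3 scored from -34.9 to -21.0, and the other 7 rats from 5.55 to 40.3. The negative scores thus came from 3 of the 4 groups and from both lines. On the second component, with 9.71% of the variance, the LCR rats scored from -19.3 to -12.7, below the other 9 rats, which scored from -1.32 to 13.7. When the score on the first component entered the fit as a further term, which was added once the data had been seen, the 1 called gene was again ENSRNOG00000021555. The median 95% interval of the fitted difference reached 0.35 log2 units to either side, and 8180 genes (60.2%) had an interval that lay within a 1.5-fold change in both directions. For the other genes a shared difference above 1.5-fold is not excluded by the interval.

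**Figure D2:**
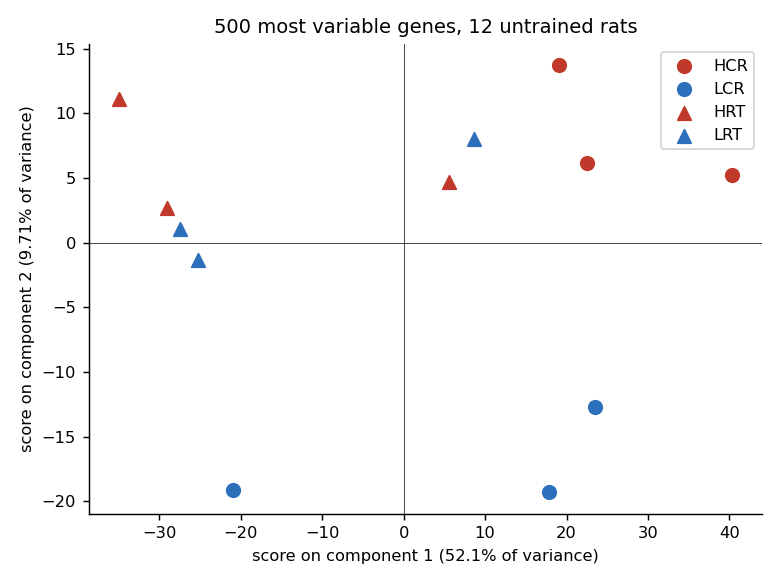
The scores of the 12 untrained rats on the first (horizontal) and second (vertical) principal component, in log2 CPM units, with red for high lines, blue for low lines, circles for the capacity programme and triangles for the response programme. The first component splits rats of 3 of the 4 groups, and the second sets the 3 LCR rats apart from the other 9.

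The differences of the 2 programmes were close to unrelated across genes. The fitted difference had the same sign in both programmes for 6672 of 13594 genes, or 49.1%. The correlation between HCR minus LCR and HRT minus LRT across genes, which are not independent replicates, was 0.026 (Pearson) and 0.011 (Spearman). From the same fit, 1343 of the 13594 tested genes had an unadjusted p under 0.05 in the capacity programme and 715 in the response programme. Of these, 97 genes were in both sets, of which 21 were higher and 32 lower in both high lines and 44 went opposite ways. The programmes share no rats, so these counts do not rest on common controls. A p under 0.05 before adjustment is also reached by genes that do not differ, so the counts are a description.

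All 3 high rats lay above or below all 3 low rats in 1692 genes (12.4% of those tested) in the capacity programme and in 2204 genes (16.2%) in the response programme. In 129 genes (0.949%) this held in both programmes in the same direction, and in 125 genes (0.920%) in opposite directions. Lower genes were in the majority among the 129, with 91 lower (0.669%) and 38 higher (0.280%) in the high lines. The fitted log2 difference of the 91 ran from -3.05 to -0.13 with a median of -0.49, and that of the 38 from 0.07 to 5.23 with a median of 0.60. A change above 1.5-fold was reached by 50 of the 129. Among the 125, 49 were higher in HCR and lower in HRT, and 76 were lower in HCR and higher in HRT.

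Larger folds were found both in the same and in opposite directions. Of the 13594 tested genes, 630 differed by at least 2-fold in the capacity programme and 323 in the response programme. A fitted difference of at least 2-fold in both programmes was found in 20 genes that were higher in both high lines and 37 that were lower in both. It was found in 47 genes that were higher in HCR and lower in HRT, and in 7 that were lower in HCR and higher in HRT. At 3-fold, the 4 counts in the same order were 5, 13, 8 and 2 genes. With only the 11333 genes of a mean CPM of at least 1, a filter added once the data had been seen, the counts at 2-fold were 8, 16, 13 and 3. The line by programme interaction, which tests whether the difference depends on the programme, called 0 genes in edgeR (0%) with a smallest adjusted p of 0.119. At an unadjusted p under 0.05 it had 951 genes, 7% of those tested. DESeq2's Wald test called 42 genes for the interaction.

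**Figure D3:**
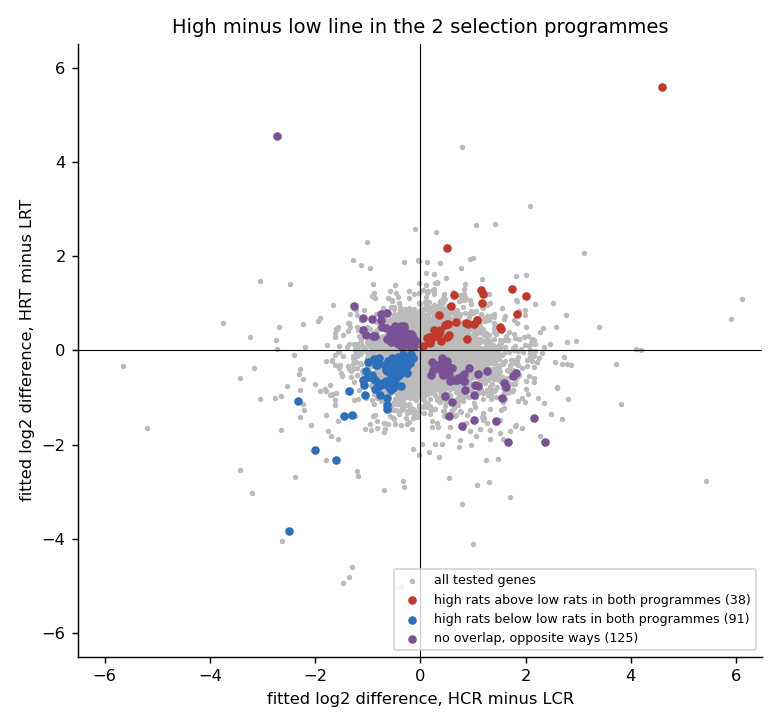
Each point is 1 of 13594 tested genes, with the fitted log2 difference HCR minus LCR on the horizontal axis and HRT minus LRT on the vertical axis; 2 genes lie outside the axes, which end at 6.5. The cloud has no slope (Pearson 0.026), the 38 red and 91 blue genes are those whose 3 high rats all lie above or below their 3 low rats in both programmes, the 125 purple genes do so in opposite directions, and the point at the top right is ENSRNOG00000021555.

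Names of genes are given only in the tables in which the authors list the genes they called in each programme, with 1 expression level per group, replicates pooled and the unit not named. The levels carry no error or n here, so the following is a description with no test. The lists were chosen by the authors on these same rats, so the direction of a listed gene is not independent evidence. With each programme fitted alone, edgeR called 4 genes for capacity and 5 for response, all higher and 0 lower in the high line. The lower levels of named genes below thus rest on the authors' calls. The table of HCR and LCR has 434 entries, 257 of them (59.2%) higher in HCR. The table of HRT and LRT has 234 entries, 170 of them (72.6%) lower in HRT. Both tables list 52 symbols, which is 12% of the first table's symbols and 22.2% of the second's. Of the 52, 28 were lower and 7 were higher in both high lines, 14 were higher in HCR and lower in HRT, and 3 were lower in HCR and higher in HRT. Put otherwise, 28 of the 31 shared genes that were lower in HCR (90.3%) were also lower in HRT, beside 72.6% of the response table as a whole. Of the 21 that were higher in HCR, 7 (33.3%) were also higher in HRT, beside 27.4% of that table.

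Among the genes lower in both high lines, 7 were at least 3-fold lower in each programme. Cdkn1a encodes p21, an inhibitor of cyclin-dependent kinases that stops the cell cycle and is a classic target of p53. Its level was 11 in HCR and 33.8 in LCR, and 7.18 in HRT and 24.4 in LRT. Eda2r, a receptor of the tumour necrosis factor receptor family that binds ectodysplasin A2, had levels of 3.20 and 13.3 in HCR and LCR and of 1.43 and 7.42 in HRT and LRT. Ankrd1, a titin-associated ankyrin repeat protein that responds to stretch and injury of muscle, had levels of 8.04 and 31.3 in HCR and LCR and of 7.09 and 30.1 in HRT and LRT. These 3 genes differed by a similar ratio in each programme, with log2 ratios of high to low line from -2.38 to -1.62. Tceal7, a regulator of myoblast proliferation and differentiation, had the highest levels of the 7, 43.5 in HCR, 144 in LCR, 17.8 in HRT and 63.7 in LRT. Prrt4, a proline-rich membrane protein, had the largest ratios, with levels of 0.411 and 2.85 in HCR and LCR and of 0.102 and 1.90 in HRT and LRT. The other two were Tekt1, a tektin of cilia and flagella with levels near or below 1 in all groups, and AABR07060872.1, an entry without a gene name.

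Of these 7 genes, 4 had a promoter sequence in the reference, and the 3 shown are those that hold at least 1 of the motifs marked. The promoter of Tekt1, which held 0 of them, is not shown. In the build GRCr8, 34 of the 52 shared symbols had exactly 1 RefSeq promoter, 18 of them lower in both. Symbols with none or with several were left out. Each line gives the 250 bases before the gene's start, in the direction of the gene. Capitals mark matches on either strand to the p53 half-site, the GC box (GGGCGG), the TATA box (TATAAA), the CCAAT box (CCAAT) and the M-CAT element (CATTCC), which binds TEAD factors. Cdkn1a lies on chromosome 20 (7150682 to 7150931, plus strand), Eda2r on chromosome X (66280621 to 66280870, minus strand) and Tceal7 on chromosome X (104019834 to 104020083, plus strand).
Cdkn1a: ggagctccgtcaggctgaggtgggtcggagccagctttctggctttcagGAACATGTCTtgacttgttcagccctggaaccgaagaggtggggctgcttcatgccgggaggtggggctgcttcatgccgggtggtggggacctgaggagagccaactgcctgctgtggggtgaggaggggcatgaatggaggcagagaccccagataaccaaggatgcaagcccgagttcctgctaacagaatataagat
Eda2r: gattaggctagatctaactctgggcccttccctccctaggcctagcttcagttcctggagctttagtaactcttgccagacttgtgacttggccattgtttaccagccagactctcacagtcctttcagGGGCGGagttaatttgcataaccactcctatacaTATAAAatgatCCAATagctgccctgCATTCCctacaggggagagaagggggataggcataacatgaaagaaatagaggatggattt
Tceal7: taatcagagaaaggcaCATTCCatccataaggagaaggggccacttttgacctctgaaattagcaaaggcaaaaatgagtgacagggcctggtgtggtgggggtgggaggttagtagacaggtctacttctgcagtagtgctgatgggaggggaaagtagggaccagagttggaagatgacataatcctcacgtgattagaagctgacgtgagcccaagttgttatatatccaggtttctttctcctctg
The capitals in Cdkn1a are its 1 p53 half-site, which 6.64% of 33469 RefSeq promoters of this length hold. Among the 18 promoters of genes lower in both, 1 held it, which was that of Cdkn1a. Eda2r held 1 match each to the GC box, the TATA box, the CCAAT box and the M-CAT element, and Tceal7 held 1 M-CAT element. An M-CAT element was found in 4 of the 18 promoters (22.2%) and in 12.1% of all promoters, and a GC box in 12 of the 18 (66.7%) and in 30.5% of all. A CCAAT box was found in 4 of the 18 (22.2%) and in 34% of all, and a TATA box in 1 of the 18 (5.56%) and in 12.9% of all. The E-box (CANNTG), which is not capitalized, was found in 12 of the 18 (66.7%) and in 65.5% of all. The share of all counts each of the 33469 promoters, whatever the gene's number of entries or its level in muscle. The 18 are of listed muscle genes with 1 entry each, so the sets are unlike and the shares were not tested against each other. These matches are letters in a window and say nothing on whether a factor binds there.

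Among the remaining 21 genes that were lower in both high lines, those below were picked after their values were seen, for roles that are well known, so their shared direction follows from the choice. Cdkn2b, the p15 inhibitor of cyclin-dependent kinases, had levels of 1.78 and 7.11 in HCR and LCR and of 1.79 and 3.31 in HRT and LRT. E2f2, a transcription factor that drives entry into S phase, had levels of 0.576 and 1.31 in HCR and LCR and of 0.962 and 1.64 in HRT and LRT. Tp63, of the p53 family, had levels of 3.58 and 7.25 in HCR and LCR and of 4.06 and 7.79 in HRT and LRT.

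Further genes of the 28 are given by their roles. Tubb6, a beta-tubulin, had levels of 7.22 and 15.6 in HCR and LCR and of 4.74 and 9.53 in HRT and LRT. Map1a, a microtubule-associated protein, had levels of 3.20 and 11.5 in HCR and LCR and of 1.62 and 4.21 in HRT and LRT. Dclk1, a kinase that binds microtubules, differed more in the capacity programme (log2 -2.45) than in the response programme (-0.81). Mustn1, a small protein of the musculoskeletal system, had high levels, 116 in HCR, 269 in LCR, 99.9 in HRT and 185 in LRT. Mlxip, a glucose-responsive transcription factor also known as MondoA, had levels of 14 and 25 in HCR and LCR and of 18.2 and 31.2 in HRT and LRT. Over all 28 genes lower in both, the log2 ratio ran from -2.79 to -0.83 in the capacity programme (median -1.36) and from -4.22 to -0.68 in the response programme (median -0.96).

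Of the 7 genes higher in both high lines, Slc2a13, a proton and myo-inositol cotransporter, was the one that exceeded 3-fold in each programme, with levels of 3.97 and 0.999 in HCR and LCR and of 6.20 and 0.832 in HRT and LRT. Myh6, the cardiac alpha-myosin heavy chain, had levels of 11.5 and 4.54 in HCR and LCR and of 1.46 and 0.241 in HRT and LRT. Ptgr1, a reductase of prostaglandins and leukotrienes, had levels of 4.54 and 2.20 in HCR and LCR and of 2.35 and 0.370 in HRT and LRT. Kera (keratocan), a small proteoglycan and 1 of the 8 tendon markers, had levels of 6.77 and 2.93 in HCR and LCR and of 15.2 and 5.07 in HRT and LRT. Cmss1, LOC100912427 and AABR07044080.2 were the others, with log2 ratios from 0.76 to 1.98.

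**Figure D4:**
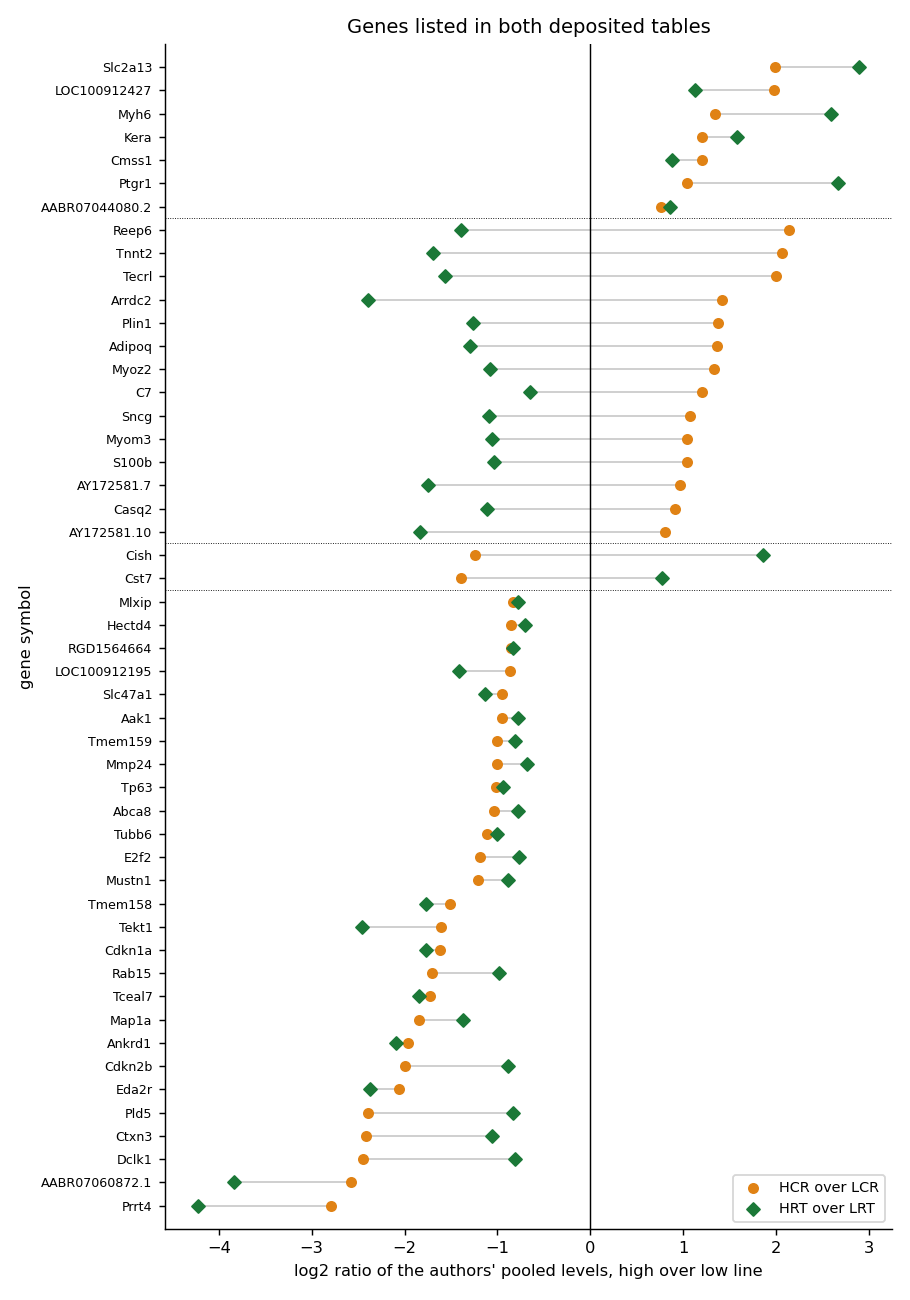
Each row is 1 of 50 of the 52 genes listed in both of the authors' tables (2 are not drawn), with the log2 ratio of the pooled level in the high line to that in the low line on the horizontal axis, as orange circles for HCR over LCR and green diamonds for HRT over LRT. The bottom block holds 27 genes lower in both high lines, the top block the 7 higher in both, and the blocks between them 14 and 2 genes that go opposite ways.

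Of 16 genes of slow muscle contraction, the capacity table lists 10, 10 of them higher in HCR, and the response table lists 3, 3 of them lower in HRT, where 59.2% of the first table is higher and 72.6% of the second is lower. Over all genes of the count tables, the first table has 1.32 entries per 100 genes and the second has 0.712. The symbols in both tables were Casq2 and Myoz2, and Myh6, which is not in the list, was higher in both high lines. Casq2, the calcium-storing calsequestrin of slow and cardiac muscle, had levels of 55.6 in HCR and 29.5 in LCR, and of 6.75 in HRT and 14.6 in LRT. Myoz2, a Z-disc protein of slow fibres that binds calcineurin, had levels of 379 in HCR and 150 in LCR, and of 27.1 in HRT and 57.5 in LRT. Csrp3, the muscle LIM protein, is listed in the response table alone, with 30.1 in HRT and 58.6 in LRT. Outside that list, Tnnt2 (cardiac troponin T) had log2 ratios of 2.07 in the capacity and -1.70 in the response programme, and Myom3, a myomesin of the M-band, had 1.04 and -1.05. Fast fibre genes, 15 in all, are in neither table. The 10 markers of the muscle fibre itself, Myh1 and Myh4 among them, are in neither table either, and since the tables hold only called genes, the tissue could not be checked by its markers. Ppargc1a, Vegfa, Myh7 and Myh2 are likewise in neither of these tables, so no value is given for them.

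Of 8 adipocyte markers, Cidec, Plin1 and Adipoq were listed as higher in HCR, and Plin1, Adipoq and Lep as lower in HRT, so that 2 were in both tables, with the same shares of 59.2% and 72.6% as background. Adipoq, the hormone adiponectin, had levels of 9.72 and 3.78 in HCR and LCR and of 8.30 and 20.3 in HRT and LRT. Plin1, the coat protein of fat droplets, had levels of 1.41 and 0.543 in HCR and LCR and of 1.29 and 3.10 in HRT and LRT. In bulk muscle, fewer cells of a type and less RNA per cell cannot be told apart. Of the 8 Schwann cell and nerve markers, S100b and Mbp were higher in HCR, while S100b was lower in HRT, with levels of 4.37 and 2.12 in HCR and LCR and of 3.12 and 6.39 in HRT and LRT. Of the other marker lists, the capacity table alone holds 3 of 8 for smooth muscle (Cnn1, Acta2 and Myh11), 2 of 8 for fibroblasts (Thy1 and Col1a1), 3 of 11 for red blood cells (Hba-a2, Alas2 and Hbb), Tnmd of 8 for tendon, and 2 of 8 for liver (Alb and Mup4), each higher in HCR. The response table alone holds Vwf of 8 endothelial markers, lower in HRT. The background for these counts is again 1.32 entries per 100 genes in the capacity programme and 0.712 in the response programme. Macrophage, T cell, B cell and satellite cell markers are in neither. The part that cell makeup has in the differences was not tested.

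Of the 20 pathway lists, 8 have a member in both tables, and only the slow contraction and atrophy lists have the same symbol in both. As background to the counts of this and the following paragraph, per 100 genes of the count tables there are 1.32 entries for HCR and LCR, of which 257 of 434 are higher and 177 lower in HCR. For HRT and LRT there are 0.712 entries per 100 genes, of which 64 of 234 are higher and 170 lower in HRT. Of 21 genes in the atrophy list, Cdkn1a is shared, Gadd45a and Mstn (myostatin, which restrains muscle growth) were lower in HCR alone, and Ddit4, an inhibitor of mTORC1 signalling, was lower in HRT alone. Of 25 genes of muscle growth and regeneration, 7 were lower in HCR (Runx1, Musk, Chrna1, Tmem8c, Igfn1, Ranbp3l and Ppm1h) and 1, Actc1, in HRT, with no gene in both. Among regulators of endurance, Prkaa2, a catalytic subunit of AMPK, was lower in HCR (55.4 against 108.7 in LCR), and Foxo1, Foxo3 and Hdac4 were lower in HRT. Of 24 genes of antigen presentation, RT1-CE10 was listed as lower in HCR and Cd74, RT1-Da and RT1-Bb as lower in HRT, with no gene in both. Calcium handling gave Camk2d, lower in HCR, and Sln, an inhibitor of the calcium pump, lower in HRT (14.9 against 56.3 in LRT). Of 32 interferon-induced genes, Ifi44 and Ifit1 were lower in HCR and Ifi27 was higher in HRT (204 against 64.9 in LRT). In the list of fatty acid uptake and oxidation, Fabp3 and Lpl were higher in HCR and Angptl4 was higher in HRT.

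Other lists were represented in 1 programme. Angiogenesis and hypoxia had 7 of 30 genes in the capacity table, 7 of them higher in HCR, and 0 in the response table. Extracellular matrix had 6 of 31 and immediate early genes 4 of 22, each higher in HCR, with 0 in the response table. Antioxidants and detoxification had 3 genes higher and 1 lower in HCR, and glycolysis and glycogen had Ldhb, higher in HCR. In the response table alone stood Cox8b of the nuclear encoded OXPHOS subunits, higher in HRT (4676 against 2950 in LRT), and the clock genes Per1 and Ciart, lower in HRT. The lists of fast contraction, mitochondrially encoded OXPHOS subunits, the tricarboxylic acid cycle, inflammation and heat shock had 0 genes in either table. Of the 13 mitochondrially encoded symbols 0 matched the RefSeq reference, so for that list the 0 may come from naming. The shared entries AY172581.10 and AY172581.7 have no gene name and could not be placed in a list. AY172581.10 had the highest levels of the shared entries, 319678 in HCR, 183157 in LCR, 210310 in HRT and 748133 in LRT. A gene listed in 1 table and absent from the other is not shown to differ between programmes, since no test of that difference could be made on these levels.

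Cish and Cst7 were among the 3 genes lower in HCR and higher in HRT. Cish, an inhibitor of cytokine signalling through STAT5, had levels of 5.09 in HCR and 12 in LCR and of 13.9 in HRT and 3.84 in LRT. Of the genes that were higher in HCR and lower in HRT, Arrdc2, an arrestin domain protein, had the lowest ratio in the response programme, with levels of 2.37 in HRT and 12.4 in LRT against 16.8 in HCR and 6.28 in LCR.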

How the data were processed

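RNA-seq of gastrocnemius was analysed from 12 untrained rats, grouped by the labels as HCR, LCR, HRT and LRT with 3 rats each. The authors deposited raw counts in 2 tables of 32882 Ensembl genes. Per the file headers they were made with featureCounts 1.6.4 on the Ensembl release 91 annotation of Rnor_6.0, with strand ignored and a read counted for every gene it overlapped, so overlapping and antisense genes can share counts. The methods name TopHat2 (version 2.1.1 in the submitters' processing notes), while the headers list alignments named in STAR's style. The authors also deposited, in a unit they do not name, a pooled expression signal per group from Cuffdiff for the genes they called. Fold changes, p-values and q-values of the authors in these tables, and the 3 tables on trained rats, were not used. Ratios of levels were computed from the deposited levels.

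The count tables were joined by gene. Analysis used R 4.3.3, edgeR 4.0.16, limma 3.58.1, DESeq2 1.42.0 and matplotlib, with filterByExpr (count minimum 10), TMM scaling and robust glmQLFit on programme plus line. The interaction used a term per group. Log2 CPM used a prior count of 2. The fits were tested on simulated data. Chi-square per gene between replicates ran from 39.8 to 273, so each library counted as 1 sample. Intervals of ratios of summed counts cover counting error only, while those of fitted differences cover the spread between rats. Nothing beyond 1 rat per library is known of the rats' litters or days, so p-values measure the spread between these rats.

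Members and gene lists (20 of pathways, 13 of cell type markers) were chosen with earlier results of these data known. Genes were named by smallest p in each direction, by list and, for the levels, by presence in both tables, which was chosen after their values were seen. Genes without a symbol are printed by identifier, at most 2 per direction. None of the 32882 identifiers matched the RefSeq table (GRCr8) used here, while 45 of the 52 shared symbols did. Some genes are not reported here. Alternatives covered scaling, test, filter, thresholds, terms, libraries in the fit, replicate numbers as blocks and each library left out.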

Additional observations from a re-analysis of the deposited data

Results flagged for a closer look

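Signals were looked for in the trained rats, which the comparison did not use. ENSRNOG00000021555 had a mean of 3.32 CPM in HRTT and 0.0903 CPM in LRTT with no overlap between the 3 rats of each, so the difference seen in untrained rats was also present in rats after training. ENSRNOG00000047028 had a mean of 9.51 CPM in HRTT and 15.1 CPM in LRTT, again with no overlap. In 6.43% of all tested genes HRTT and LRTT did not overlap in the direction of the untrained difference. The trained rats come from the same lines as HRT and LRT, so they do not stand for further lines. The heading number was 3 in all HRTT and 2 in all LRTT libraries, so line and this number cannot be told apart there.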

How the results depend on the processing

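ENSRNOG00000021555 was called in 29 of the 29 alternatives that tested it, with a log2 difference from 4.60 to 5.58 and an adjusted p from 4.13e-35 to 0.046. It has too few counts in the low lines to stay when each library must hold 10 counts, and 0 genes were then called. The number of genes called between high and low lines was 1 and became 40 with DESeq2, 2 with limma-voom, 2 with no filter on low counts, 3 at an adjusted p under 0.10, 6 with all 18 libraries in the fit, 2 with no programme term, 4 with a term per group, 6 with the heading number as a covariate, 4 in the capacity programme alone and 5 in the response programme alone. The heading number takes HRT out of the contrast, since HRT shares no number with LRT. Leaving out each library in turn gave 1 to 2 genes, with 2 without HCR replicate 2, LCR replicate 3, HRT replicate 3 or LRT replicate 2. The interaction, at 0 genes, became 42 with DESeq2, 1 with limma-voom and 2 with no filter, and 0 to 3 when each library was left out, with 3 without LCR replicate 3, 2 without HCR replicate 1 or 3, and 1 without HRT replicate 1. The cause of these changes was not tested.

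Replicate numbers did not pair the rats, since the deviations of same-numbered rats of HCR and LCR correlated at -0.227, 0.215 and 0.199 and those of HRT and LRT at -0.277, -0.206 and 0.101. With the replicate number within each programme as a block, 1 gene was called, and with a block shared by both programmes 2 genes. Both blocks left the interaction at 0. Genes whose rats did not overlap the same way in both programmes numbered 129, and 115 to 154 under another scaling or filter. Signs of the 4 identifiers held under every alternative in which they were tested, while the calls of the 3 that did not pass changed 15 times, as with DESeq2 or all 18 libraries. Depth and 3 rats per group limit what can be seen.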
